A study of Mus musculus with 7 samples.

Results

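Histone acetylation genes were described in hematopoietic stem cells (HSCs) of mice that lack or keep the chromatin protein DEK. The set holds 39 of the 33298 genes of the expression table, taken by their symbol from a list that was drawn up with earlier results of these data known. It covers 7 classes: corepressor scaffolds and subunits (6 genes), the NuRD complex (4), class I deacetylases (4), class II and IV deacetylases (7), sirtuins (7), acetyltransferases (9) and BET readers (2). All 39 symbols were found, each in exactly 1 row.

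The Dek_cKO group has 3 libraries, from mice whose floxed Dek alleles were combined with Tie2-Cre. The Dek_fl group has 4 libraries, from mice with the floxed alleles and no Cre. Tie2-Cre is active in endothelial and blood cells alike, so deletion of Dek is not limited to HSCs. All mice were 12 weeks old and unchallenged. About 800 bone marrow cells per library were sorted as lineage-negative, Sca-1+, c-Kit+, CD48- and CD150+, and polyadenylated RNA was amplified with a low-input kit. Whether each library is 1 animal is not stated in the labels, so a p-value refers to the spread among these libraries, part of which may be technical. In such bulk samples fewer cells of a type and less RNA per cell cannot be told apart.

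Acetyl groups on histone tails loosen the hold of nucleosomes on DNA and are bound by readers such as the BET bromodomain proteins. Acetyltransferases write the mark. Zinc-dependent deacetylases (classes I, II and IV) and the NAD-dependent sirtuins can remove it. Hdac1, Hdac2 and Hdac3 of class I do so mostly inside large complexes that corepressor scaffolds such as NCoR, SIN3, CoREST and NuRD hold together. Some members are known for other substrates, such as tubulin for Hdac6 and polyamines for Hdac10, and Sirt3 is mitochondrial. In blood stem cells several of these proteins, among them Crebbp, Ep300, Kat6a, Hdac1 and Hdac2, are known to be needed for self-renewal or differentiation.

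Levels are FPKM, fragments per length of transcript and depth of library, so they can be set side by side between genes. The depth that makes these values whole reads was 4422644 to 12540430 reads in Dek_cKO and 4209152 to 26951516 reads in Dek_fl. Dek itself was at 9.60, 8.40 and 12.7 FPKM in Dek_cKO and at 77.0, 117.8, 143.0 and 26.0 FPKM in Dek_fl. Its log2 fold change was -2.81 (SE 0.962), with an exact permutation p of 0.0571 over 35 splits, two-sided, where 0.0286 is the smallest possible. The deposited value in Dek_cKO replicate 3 goes with 405.8 reads, which is not a whole number, while those of the other 6 libraries are whole. Multiplied by 10 it is 126.6 FPKM and 4058 reads, a whole number, and lies within the Dek_fl range. With that value the exact permutation p was 0.314 and the log2 fold change -1.73, so the loss of Dek in the library labelled Dek_cKO replicate 3 could not be checked. The counts over the acetylation genes, and the genes whose groups do not overlap, are therefore also given without it.

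Of 10 HSC markers 7 were at 1 FPKM or more in every library, among them Kit and Ly6a. Slamf1, which encodes the sort marker CD150, was listed at 0 in 3 libraries and was at 0.0588 to 1.80 FPKM in the others. The summed level of 6 granulocyte and monocyte markers was 453 to 7490 FPKM in Dek_cKO, highest in replicate 3, and 359 to 1780 in Dek_fl. Most of the sum in Dek_cKO replicate 3 was Elane, at 5393 FPKM, and Mpo, at 1542 FPKM. Endothelial markers summed to 0.534 to 8.69 FPKM in Dek_cKO and to at most 2.16 in Dek_fl. T and NK cell markers, 3 of 4 in the table, summed to 451 to 1340 FPKM in Dek_cKO and 34.9 to 576 in Dek_fl, nearly all of it Nkg7, while Cd3d was at 0 in every library. B cell markers summed to at most 68.4 FPKM in Dek_cKO and 66.6 in Dek_fl, erythroid markers to 5.06 to 49.8 and 26.1 to 128, and megakaryocyte markers to 89.8 to 313 and 86.9 to 1240 in the same groups. The part of other cells in the values below was not tested. Of 36 markers 2 hold values that are no whole reads at any length tried, Gata2 in Dek_cKO replicates 1 and 3 and Mpo in Dek_cKO replicate 3, while all 273 values of the acetylation genes are whole. The value of Elane in Dek_cKO replicate 3 is not whole at the annotated length, only at another.

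The acetylation genes were expressed at widely different levels, and the most abundant by median over the 7 libraries were the class I deacetylases Hdac1 and Hdac2. Of the 39 genes, 24 were above 0 in all 7 libraries, 15 were at 1 FPKM or more in all 7, and 15 were listed at 0 in at least 1 library. Of all 273 values, 25 were 0. Dek_fl replicate 4 held 12 of these zeros and Dek_cKO replicate 2 held 6, against 0 to 4 in each of the others. Dek_fl replicate 4 was also the library with the fewest genes of any kind, 8575 above 0 against 14291 to 19950. An exact 0 is reported here as listed at 0, since abundant genes of every kind are also listed at 0 in single libraries.

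**Figure D1:**
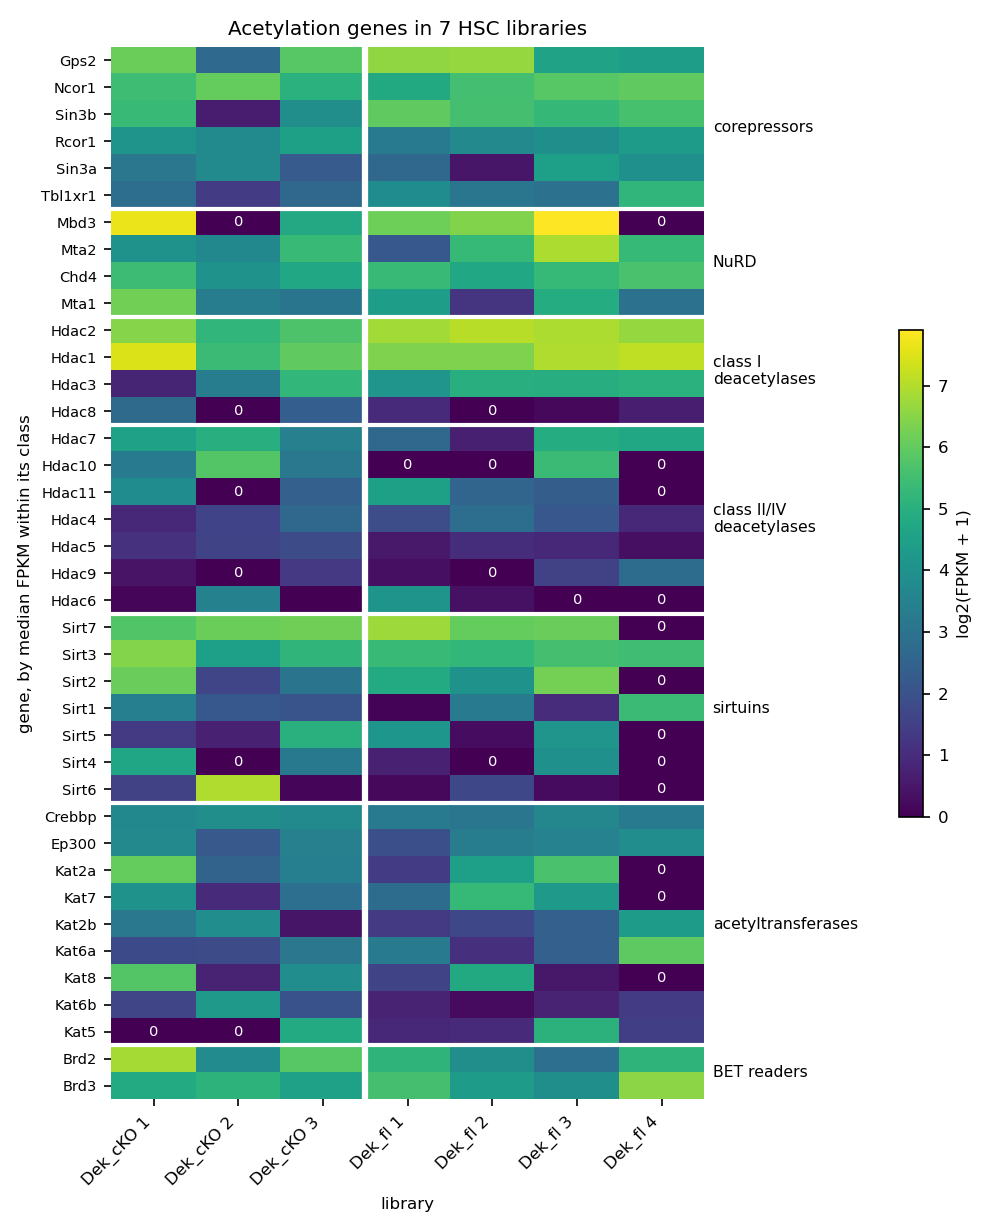
Level of each of the 39 acetylation genes (rows, grouped by class) in each library (columns, Dek_cKO left and Dek_fl right) as log2(FPKM + 1), where a written 0 marks a value listed at 0. Hdac1, Hdac2, Ncor1, Chd4, Sirt3 and Crebbp keep a similar shade across all 7 libraries, while Mbd3, Sirt7 and Hdac10 are high in some and listed at 0 in others.

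Hdac1 and Hdac2 are close paralogs that form the catalytic core of the SIN3, NuRD and CoREST complexes. Hdac2, on chromosome 10 from 36974544 to 37001889 of GRCm38, plus strand, was at 88.3, 35.8 and 51.5 FPKM in Dek_cKO replicates 1 to 3. In Dek_fl replicates 1 to 4 it was at 110.3, 131.7, 122.1 and 100.2 FPKM. All 3 Dek_cKO libraries lay below all 4 Dek_fl libraries. The means were 58.5 ± 26.9 FPKM in Dek_cKO (SD, n = 3) and 116 ± 13.7 FPKM in Dek_fl (SD, n = 4). The difference was -1.07 on the log2 scale (SE 0.685, unadjusted p = 0.136, adjusted p = 0.9999 over 10260 genes, by limma) and did not pass the threshold. After rescaling every library to the same sum of FPKM (TPM) the groups overlapped.

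Hdac1, on chromosome 4 from 129516104 to 129542713, minus strand, was at 178.0, 40.5 and 62.3 FPKM in Dek_cKO, against 83.0, 83.0, 123.1 and 141.4 FPKM in Dek_fl. The Dek_cKO libraries held both the highest and the lowest value, and the log2 fold change was -0.44 (SE 0.708). It was 0.01 without Dek_cKO replicate 2, -1.04 without Dek_cKO replicate 1 and -0.29 without Dek_cKO replicate 3. Together Hdac1 and Hdac2 made up 73.8% to 97.6% of the class I total in Dek_cKO and 87.8% to 91.7% in Dek_fl. The ratio of Hdac2 to Hdac1 was 0.496, 0.885 and 0.827 in Dek_cKO, and 1.33, 1.59, 0.992 and 0.709 in Dek_fl, so the groups overlapped.

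Hdac3, the deacetylase that NCoR recruits and activates, was the third of the class with a median of 29.6 FPKM. In Dek_cKO it stood at 0.750, 9.27 and 36.3 FPKM, on 16, 147 and 1631 reads, and in Dek_fl at 16.5 to 32.0 FPKM. The Dek_cKO libraries thus spanned the Dek_fl range at both ends. Hdac8, an X-linked class I enzyme that acts on cohesin, was too low to be tested. It was at 5.71, 0 and 4.12 FPKM in Dek_cKO and at 0.943, 0, 0.115 and 0.585 FPKM in Dek_fl, where no library had over 9 reads.

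The deacetylases of classes II and IV were far lower than those of class I. The median gene of the 7 stood at 2.67 FPKM, against 56.3 FPKM for the median of the 4 class I genes, each gene taken at its median over the 7 libraries. Class I summed to more than classes II and IV in 6 of 7 libraries, the exception being Dek_cKO replicate 2, with a ratio of 0.865. Hdac7, a class IIa enzyme bound by MEF2 factors, led the class at 21.9, 30.3 and 9.81 FPKM in Dek_cKO and 5.41, 0.604, 28.5 and 25.2 FPKM in Dek_fl, with overlap. Its fold change, 1.07 on the log2 scale (SE 1.31), was 0.21 when Dek_fl replicate 2 was left out and 1.61 when Dek_fl replicate 3 was.

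Hdac10, a class IIb enzyme known to deacetylate polyamines, was present in every Dek_cKO library, at 8.77, 54.3 and 8.07 FPKM. It was listed at 0 in Dek_fl replicates 1, 2 and 4 and was at 40.5 FPKM in Dek_fl replicate 3, on 3163 reads. That library makes the groups overlap. Its log2 fold change of 2.74 (SE 1.5, unadjusted p = 0.0821) was 5.14 with a pseudocount of 0.1, at which its unadjusted p was under 0.05, as it was without Dek_fl replicate 3 and by voom. Apart from Dek_fl replicate 3, only Dek_cKO libraries carried Hdac10 past the filter on low values. Without that library it entered the test through the group where it is high, so its p there supports nothing.

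Hdac5, another class IIa enzyme, was low but ordered by group. It was at 1.18, 2.09 and 2.58 FPKM in Dek_cKO, on 38 to 175 reads, and at 0.440, 1.05, 0.892 and 0.245 FPKM in Dek_fl, on 6 to 130 reads. All Dek_cKO values lay above all Dek_fl values, and 3 of the 4 libraries at 1 FPKM or more, which carried it past the filter on low values, were Dek_cKO. It had a log2 fold change of 0.83 (SE 0.795, unadjusted p = 0.308; 1.53 with a pseudocount of 0.1). The other members of these classes were Hdac4 at 0.830 to 6.25 FPKM, Hdac9 and Hdac11, each listed at 0 in 2 libraries, and Hdac6, the tubulin deacetylase, which was above 1 FPKM in only 2 libraries and was not tested.

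**Figure D2:**
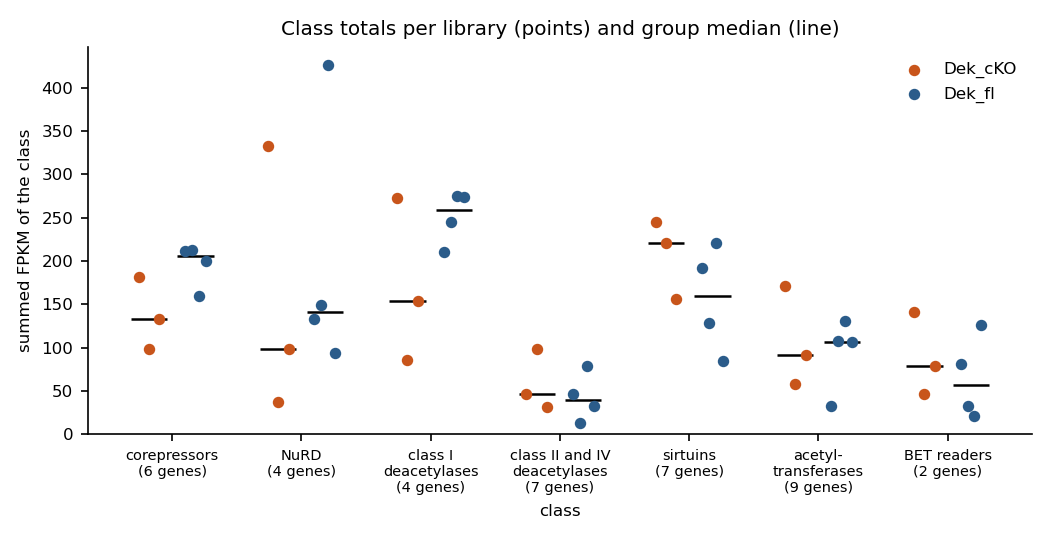
Summed FPKM of each class in each library (points; Dek_cKO left, Dek_fl right of each pair) with the group median as a line. Class I sums lie between 85.6 and 272.8 in Dek_cKO and between 210.8 and 274.9 in Dek_fl, and in every class the points of the 2 groups overlap.

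Corepressor scaffolds and subunits were present in every library, with no value listed at 0. Ncor1, the scaffold that activates Hdac3, lies on chromosome 11 from 62316426 to 62458541, minus strand. It was at 42.4, 65.1 and 31.9 FPKM in Dek_cKO and at 27.1, 45.5, 57.2 and 61.7 FPKM in Dek_fl, on 1029 to 13936 reads. The groups overlapped (log2 fold change -0.04, SE 0.834), with means of 46.5 ± 17.0 FPKM in Dek_cKO (SD, n = 3) and 47.9 ± 15.5 FPKM in Dek_fl (SD, n = 4).

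Partners of Ncor1 in the same complex were less even. Tbl1xr1, a WD-repeat subunit that helps exchange corepressors for coactivators, lies on chromosome 3 from 22076652 to 22216594, plus strand. It was at 6.20, 1.65 and 5.28 FPKM in Dek_cKO and at 13.4, 7.58, 6.82 and 35.8 FPKM in Dek_fl. Its groups did not overlap, at a log2 fold change of -1.48 (SE 1.26, unadjusted p = 0.253), but they did after median-of-ratios scaling. Gps2, a small subunit of the complex, was at 69.5, 5.52 and 56.9 FPKM in Dek_cKO and at 95.1, 100.4, 22.6 and 20.2 FPKM in Dek_fl. The groups overlapped, with a log2 fold change of -0.65 (SE 1.04) that ran from -1.27 without Dek_cKO replicate 1 to 0.44 without Dek_cKO replicate 2.

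Sin3b, a scaffold that carries Hdac1 and Hdac2, had the smallest p of the 37 members tested. It lies on chromosome 8 from 72723285 to 72758201, plus strand. Its values were 39.7, 0.549 and 13.9 FPKM in Dek_cKO, against 62.5, 46.4, 37.7 and 47.6 FPKM in Dek_fl. The Dek_fl libraries lay close together, at 48.5 ± 10.3 FPKM (SD, n = 4), while the Dek_cKO libraries spread from 10 reads in replicate 2 to a value above that of Dek_fl replicate 3. The log2 fold change was -2.31 (SE 1.16, unadjusted p = 0.0608, adjusted p = 0.9999 by limma), and -0.98 without Dek_cKO replicate 2. Without Dek_cKO replicate 1 it was -3.34, with an unadjusted p of 0.0171 by limma and no overlap. Its paralog Sin3a was lower, at 3.84 to 12.7 FPKM in Dek_cKO and 0.405 to 20.9 FPKM in Dek_fl. Rcor1, the CoREST scaffold, was among the steadiest genes of the set, at 16.0, 12.4 and 21.7 FPKM in Dek_cKO and 8.28 to 19.8 FPKM in Dek_fl.

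NuRD joins a chromatin remodeller to Hdac1 and Hdac2. Its ATPase Chd4 was at 42.1, 15.6 and 25.9 FPKM in Dek_cKO and at 25.5 to 48.3 FPKM in Dek_fl. Mbd3, the methyl-CpG-binding-domain subunit, was at 202.3 and 26.1 FPKM in Dek_cKO replicates 1 and 3 and listed at 0 in replicate 2. In Dek_fl it was at 70.3, 83.6 and 239.1 FPKM in replicates 1 to 3 and listed at 0 in replicate 4. The 2 libraries at 0 belong to different groups, and 10710 reads stand behind the highest value. Mta2, a scaffold subunit, was at 15.2, 12.0 and 39.3 FPKM in Dek_cKO and at 3.56, 38.4, 120.6 and 38.1 FPKM in Dek_fl. Its paralog Mta1 was at 73.6, 9.20 and 7.42 FPKM in Dek_cKO and at 19.9, 1.27, 28.7 and 6.97 FPKM in Dek_fl. Both overlapped between groups. The log2 fold changes were -0.97 for Mbd3 (SE 1.78), -0.57 for Mta2 (SE 1.17) and 0.85 for Mta1 (SE 1.32), and each changed sign when 1 library was left out. That of Mbd3 ran from -2.74 without Dek_cKO replicate 1 to 1.10 without Dek_cKO replicate 2. That of Mta2 ran from -1.49 when Dek_fl replicate 1 was dropped to 0.09 when Dek_fl replicate 3 was, and that of Mta1 from -0.15 to 1.42 when Dek_cKO replicates 1 and 3 were dropped in turn.

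Among the sirtuins 2 were abundant and the others scarcer. Sirt7, a nucleolar deacetylase, was at 53.6, 68.5 and 71.5 FPKM in Dek_cKO and at 107.4, 65.3 and 66.9 FPKM in Dek_fl replicates 1 to 3, but listed at 0 in Dek_fl replicate 4. Its log2 fold change of 1.30 (SE 1.27) was -0.28 without that library and 1.98 without Dek_fl replicate 1. Sirt3, the mitochondrial deacetylase, was at 85.8, 21.2 and 34.97 FPKM in Dek_cKO and at 38.8, 36.5, 46.4 and 43.7 FPKM in Dek_fl. The Dek_cKO values lay on both sides of those of Dek_fl (log2 fold change -0.04, SE 0.874), at means of 47.3 ± 34.0 FPKM in Dek_cKO (SD, n = 3) and 41.4 ± 4.49 FPKM in Dek_fl (SD, n = 4).

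The other 5 sirtuins had medians between 0.177 and 15.2 FPKM. Sirt6, a nuclear sirtuin of DNA repair and telomeric chromatin, was at 1.87, 124.7 and 0.0843 FPKM in Dek_cKO and at 0.126, 2.30, 0.177 and 0 FPKM in Dek_fl. The value of Dek_cKO replicate 2, on 1043 reads, stood far above the other 6. Its log2 fold change was 2.34 (SE 1.35, unadjusted p = 0.0996), and 3.71 without Dek_cKO replicate 3, where its unadjusted p was 0.0231 by limma. It did not pass the filter on low values without Dek_cKO replicate 1 or 2 or Dek_fl replicate 2. Sirt1 ranged from 0.0536 FPKM, which is 1 read, in Dek_fl replicate 1 to 40.9 FPKM in Dek_fl replicate 4. Sirt2, Sirt4 and Sirt5 were listed at 0 in 1, 3 and 1 of the 7 libraries.

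Acetyltransferases were expressed at lower levels than class I deacetylases. The class I total, from 4 genes, exceeded that of the 9 acetyltransferases in all 7 libraries, by 1.59, 1.47 and 1.69 times in Dek_cKO and 6.35, 2.28, 2.1 and 2.58 times in Dek_fl. The 3 Dek_cKO ratios lay below the 4 Dek_fl ratios. This was seen after the values were known and was not tested. Crebbp, a coactivator acetyltransferase of many transcription factors, lies on chromosome 16 from 4081328 to 4213997, minus strand. It was the steadiest of all 39 genes, at 11.8, 13.9 and 12.8 FPKM in Dek_cKO and 8.83, 7.63, 11.6 and 8.40 FPKM in Dek_fl.

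All Dek_cKO values of Crebbp lay above all Dek_fl values, at means of 12.8 ± 1.04 FPKM in Dek_cKO (SD, n = 3) and 9.13 ± 1.75 FPKM in Dek_fl (SD, n = 4). After TPM rescaling the groups overlapped. The log2 fold change was 0.46 (SE 1.18, unadjusted p = 0.700 by limma). That SE is moderated toward genes of similar level, whereas the SD of Crebbp itself within groups was 0.20 on the log2(FPKM + 1) scale. Its paralog Ep300 was at 12.1, 3.64 and 9.86 FPKM in Dek_cKO and at 2.81 to 13.6 FPKM in Dek_fl.

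Kat6b, a MYST-family acetyltransferase, lies on chromosome 14 from 21481434 to 21672478, plus strand. It was at 2.14, 17.9 and 3.01 FPKM in Dek_cKO and at 0.710, 0.182, 0.704 and 1.64 FPKM in Dek_fl. The groups did not overlap, and 3 of its 4 libraries at 1 FPKM or more were Dek_cKO. The log2 fold change was 1.83 (SE 1.09, unadjusted p = 0.109), and 1.03 without Dek_cKO replicate 2. Its paralog Kat6a, which blood stem cells need, had its highest value, 61.2 FPKM, in Dek_fl replicate 4 and was at 2.45 to 7.84 FPKM in Dek_cKO. Processed pseudogenes of Kat6b and Kat2b are annotated, and reads of a gene and its pseudogene may have been shared. Whether other members have pseudogenes is not given here.

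The remaining acetyltransferases varied from library to library. Kat2a, the catalytic subunit of SAGA, was at 65.1, 4.77 and 9.61 FPKM in Dek_cKO and at 1.6, 21.1 and 48.4 FPKM in Dek_fl replicates 1 to 3, and listed at 0 in Dek_fl replicate 4. Its log2 fold change was 1.13 (SE 1.49), and ran from 0.10 without Dek_cKO replicate 1 to 2.05 without Dek_fl replicate 3. Kat8, the writer of H4 acetylation in the MSL complex, was at 54.3, 0.716 and 13.7 FPKM in Dek_cKO and at 2.11, 26.9 and 0.423 FPKM in Dek_fl replicates 1 to 3, with 0 listed in replicate 4. Its log2 fold change was 1.75 (SE 1.5), and was 0.59 without Dek_cKO replicate 1. It was 3.10 when Dek_cKO replicate 2 was left out and 2.77 when Dek_fl replicate 2 was. Kat5, the catalytic subunit of the TIP60 complex, was at 27.5 FPKM in Dek_cKO replicate 3 and 32.8 FPKM in Dek_fl replicate 3, and at most 1.76 FPKM in the other 5. Kat7 and Kat2b had medians of 6.38 and 4.42 FPKM.

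BET readers bind acetylated histones through paired bromodomains. Brd2, on chromosome 17 from 34112023 to 34122634, minus strand, was at 113.5, 13.0 and 57.3 FPKM in Dek_cKO and at 34.4, 14, 6.36 and 34.6 FPKM in Dek_fl. Most of its Dek_cKO range lay above that of Dek_fl, with overlap. The log2 fold change was 1.23 (SE 1.09). It was 0.56 without Dek_cKO replicate 1, 0.77 when Dek_fl replicate 3 was left out and 2.08 when Dek_cKO replicate 2 was. By voom it was 2.16, with an unadjusted p of 0.0173. Brd3, on chromosome 2 from 27445579 to 27507662, minus strand, was at 27.6, 33.3 and 22.0 FPKM in Dek_cKO and at 46.7, 19.1, 14.5 and 91.3 FPKM in Dek_fl. The Dek_cKO values lay inside the Dek_fl range (log2 fold change -0.28, SE 0.993). Exons of Brd2 share 4.6% of their bases with H2-DMa on the other strand, those of Sirt3 7.0% with Ric8a and 5.7% with Psmd13, those of Kat5 12.1% with Rnaseh2c and those of Kat8 4.2% with Prss8. The strand setting of the counting is not given in the sources used here, so part of these values may come from the neighbour. Exons of Sirt7 share 2.4% of their bases with Mafg on the same strand, where no strand setting would separate them. In other members the share was at most 0.8%.

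No acetylation gene was called different between Dek_cKO and Dek_fl. Of the 39 genes, 37 reached 1 FPKM in at least 3 libraries and were tested by limma. None passed an adjusted p of 0.05, as none of the 10260 genes did (0.0% called; smallest adjusted p = 0.9999). Of the 37, 0 had an unadjusted p under 0.05 in either direction, where 3.94% of all genes tested had one, 2.12% on the higher and 1.81% on the lower side. With a pseudocount of 0.1 Hdac10 had one, and by voom on the recovered reads Brd2 and Hdac10 had. Log2 fold changes were positive in 17 and negative in 20, and their median was -0.04, against 0.05 over all genes. Without Dek_cKO replicate 2 the median was 0.41, against 0.14 over all genes, with 23 of 36 positive. Without Dek_cKO replicate 3 it was 0.08, against -0.07 over all genes, with 18 of 34 positive, and 1 gene, Sirt6, had an unadjusted p under 0.05, where 4.68% of all genes had. The median SE of the 37 was 1.26.

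**Figure D3:**
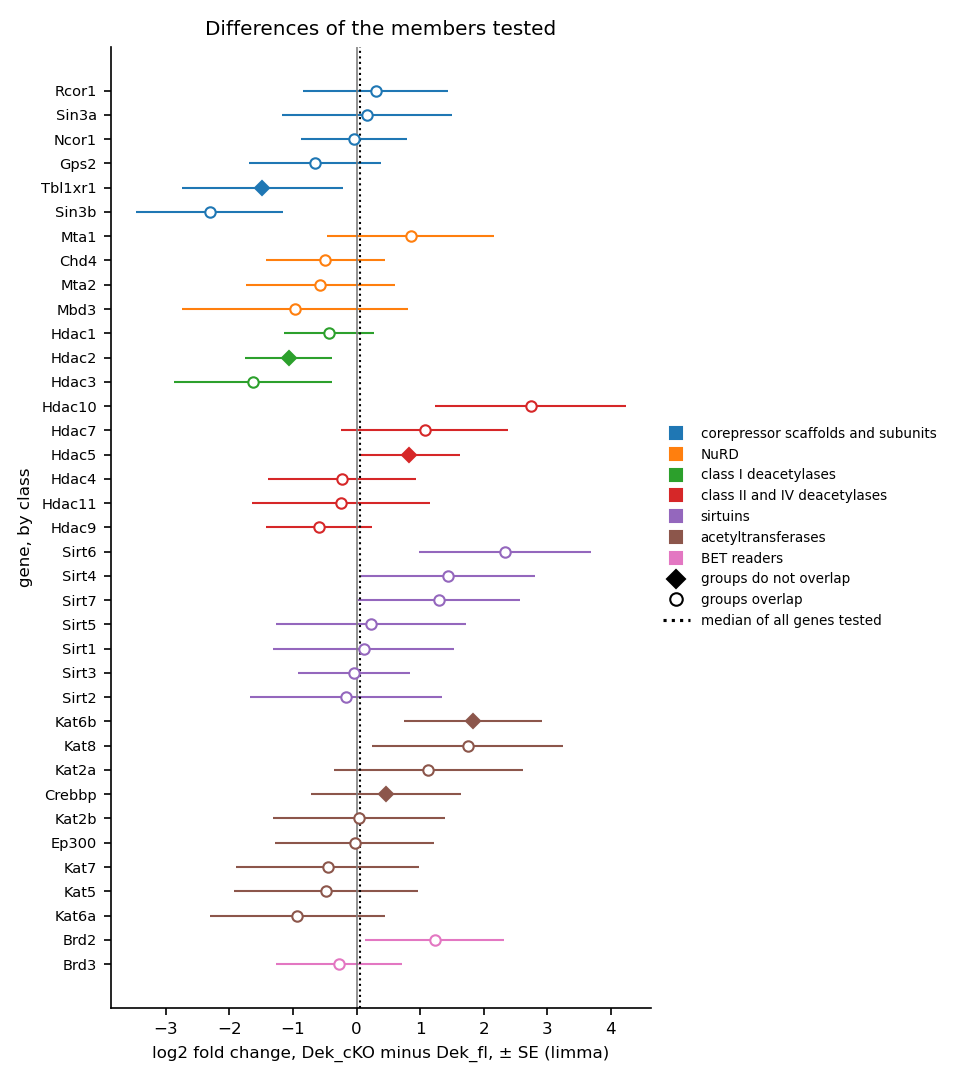
Log2 fold change (Dek_cKO minus Dek_fl, on log2(FPKM + 1), with limma's SE as bars) of the 37 members tested, coloured by class, with filled diamonds where the groups do not overlap. Sin3b lies lowest at -2.31 and Hdac10 highest at 2.74, and no member passed the threshold.

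Groups did not overlap in 5 of the 37 genes (13.5%), where 4.94% of all genes tested had no overlap. Crebbp, Hdac5 and Kat6b were higher in Dek_cKO (background 2.86%), and Hdac2 and Tbl1xr1 were lower (background 2.09%). Hdac5 and Kat6b passed the filter on low values mostly through Dek_cKO, the group where they are high, so the 13.5% is not read as an excess. After median-of-ratios scaling 4 remained without overlap (5.16% of all genes), and after TPM rescaling 3 (4.87%), namely Hdac5, Kat6b and Tbl1xr1. With the filter of 1 FPKM in at least 5 libraries, Crebbp, Hdac2 and Tbl1xr1 remained, of 28 members tested (4.84% of all genes). Among the 21 genes given with a fold change, Hdac2, Tbl1xr1 and Crebbp were the 3 whose fold change kept its sign and stayed within 1.5 times of its value under all 16 alternatives. Not all of these could move it. Leaving out the filter, the stricter filter and plain eBayes do not alter the fold change of a tested gene. The replicate block repeats the fold change found without Dek_fl replicate 4. Without Dek_cKO replicate 3 Hdac3, on the lower side, also had no overlap, where the background was 13.0%. Groups without overlap cannot come to overlap when a library is left out. The 5 were thus bound to remain, and their staying shows nothing about that library. The log2 fold changes without Dek_cKO replicate 3 were -1.02 for Hdac2, -1.65 for Tbl1xr1, 0.46 for Crebbp, 0.68 for Hdac5 and 2.15 for Kat6b. The plot of FPKM by library shows these genes with Sin3b.

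**Figure D4:**
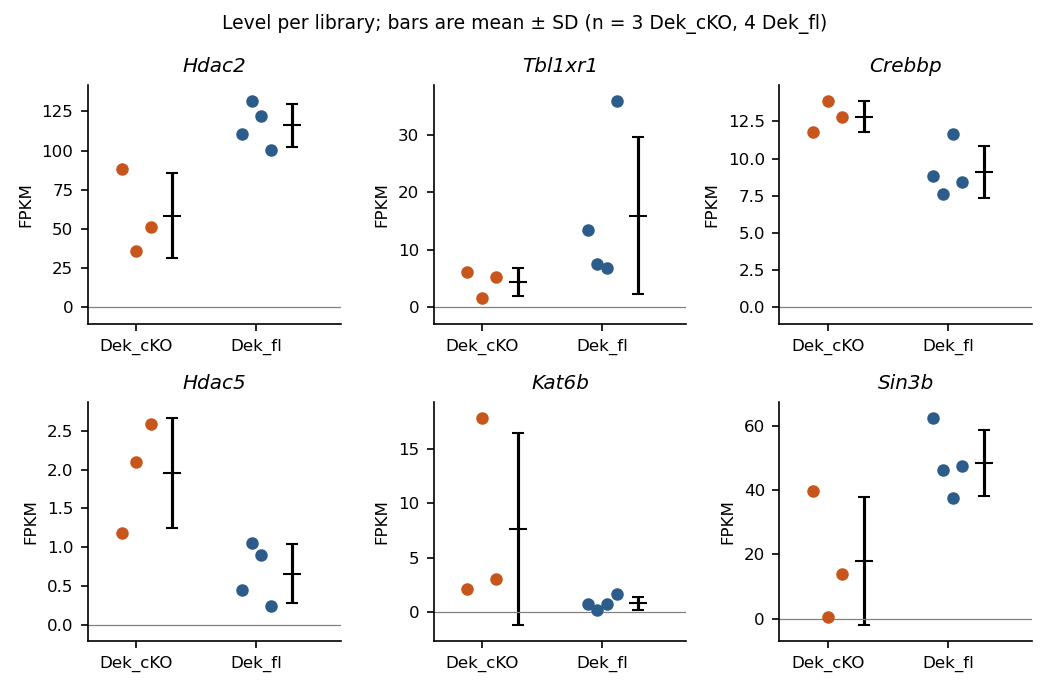
FPKM per library (points) of the 5 members whose groups do not overlap and of Sin3b, Dek_cKO left and Dek_fl right, with mean ± SD beside them. Hdac2 and Tbl1xr1 are lower in all 3 Dek_cKO libraries than in any Dek_fl library, and Crebbp, Hdac5 and Kat6b are higher.

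Members differed widely in how even they were within a group. The SD within groups, on the log2(FPKM + 1) scale, was 0.20 for Crebbp, 0.35 for Hdac5, 0.43 for Hdac2, 0.45 for Rcor1, 0.52 for Ncor1 and for Chd4, 0.64 for Sirt3 and 0.75 for Hdac1. The added 1 shrinks the spread of low genes, so Hdac5 cannot be called steadier than Hdac2 or Rcor1. Over the 7 libraries its highest value was 10.5 times its lowest, against 3.68 times for Hdac2 and 2.62 times for Rcor1. It was 2.46 for Sirt7, 2.53 for Sirt2 and 3.65 for Mbd3, each listed at 0 in at least 1 library. The median of the 37 was 1.54, against 1.51 over all genes tested. Of the 37, 13 (35.1%) were listed at 0 in at least 1 library, against 43.4% of all genes tested.

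**Figure D5:**
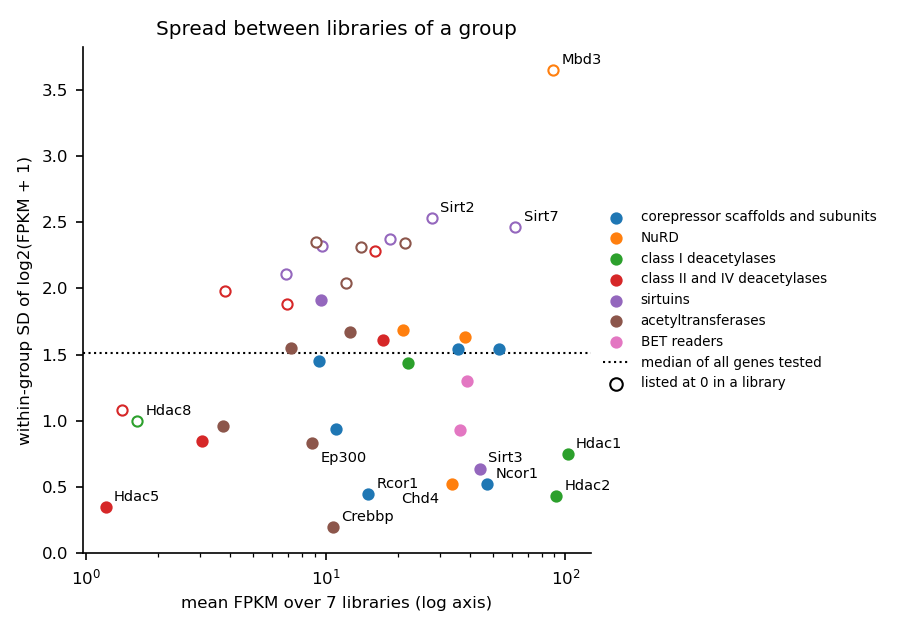
SD within groups of log2(FPKM + 1) against mean FPKM over the 7 libraries (log axis) for the 39 members, coloured by class, with open circles for members listed at 0 in a library. Crebbp, Hdac5, Hdac2, Rcor1, Ncor1 and Chd4 lie at 0.52 or below, and Mbd3 at 3.65 lies highest. The added 1 lowers the SD of low genes such as Hdac5. The dotted line is the median of all genes tested, 1.51.

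Other subunits of the same complexes were read from a list of 79 symbols, of which 77 are in the table and 73 were tested. None was called. Counts at an unadjusted p under 0.05 were 1 higher (Mllt1) and 3 lower, beside the 2.12% and 1.81% given above, and 0 when Dek_fl replicate 1 was left out. Mllt1 reached 1 FPKM in the 3 Dek_cKO libraries alone, so it entered the test through the group where it is high, and its count supports nothing. The values of all 77 are whole reads in every library, of 68 at the annotated length and of the others, Mllt1 among them, at another. Ruvbl1, an AAA+ ATPase of the TIP60 complex, was at 110.2, 34.2 and 99.3 FPKM in Dek_cKO and at 252.8, 144.8, 262.5 and 140.2 FPKM in Dek_fl, without overlap (log2 fold change -1.40, SE 0.648, unadjusted p = 0.0436 by limma, adjusted p = 0.9999). Its unadjusted p was not under 0.05 with no filter on low values, after TPM rescaling, with plain eBayes or by voom. Nor was it without Dek_fl replicate 1, 2 or 3 or Dek_cKO replicate 2. Of the 73 partners tested, groups did not overlap in 2 higher (Mllt1 and Trrap) and 3 lower (Ing1, Ruvbl1 and Epc2). That is 6.85%, where 4.94% of all genes tested had no overlap.

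Ing1, a reader of methylated histone H3 in SIN3 complexes, was also lower without overlap. It was at 5.49, 2.17 and 25.3 FPKM in Dek_cKO and at 126.9, 41.1, 26.7 and 87.4 FPKM in Dek_fl (log2 fold change -2.89, SE 1.10). Sap30l, a SIN3 subunit, was listed at 0 in Dek_cKO replicate 1, at 105.5 in replicate 2 and 1.87 FPKM in replicate 3, against 42.5 to 69.4 FPKM in Dek_fl, with overlap (log2 fold change -3.02, SE 1.34). Mllt1, a YEATS-domain reader of acetylated histones, was at 2.42, 8.21 and 1.64 FPKM in Dek_cKO and at most 0.401 FPKM in Dek_fl, where 2 libraries were listed at 0 (log2 fold change 1.94, SE 0.804). Mllt1 was not tested with the stricter filter or when any Dek_cKO library was left out. Its unadjusted p was not under 0.05 with no filter on low values, with the replicate block or without Dek_fl replicate 1. That of Ing1 was not under 0.05 by voom or without Dek_fl replicate 1 or Dek_cKO replicate 2. For Sap30l it was not by voom, with plain eBayes, or without Dek_fl replicate 1 or 2 or Dek_cKO replicate 1 or 3. Ruvbl1, Ing1, Sap30l and Mllt1 each had an adjusted p of 0.9999 by limma.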

How the data were processed

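The submitters' processing notes name HTSeq, Cufflinks 2.1.1 and Bowtie 0.12.9, and the build mm10. Which step each served is not stated there. The authors deposited FPKM, 1 column per library, and 0 columns were left unmapped. FPKM × transcript length × library total gives whole reads for 93.90% of 111605 assessed values at the longest annotated transcript (within rounding plus 0.003 reads). All 273 values of the members were whole, for 37 members at that length and for Kat5 and Brd2 at 2008 and 4520 bases. Positions and exon overlaps are from GENCODE M21 (GRCm38).

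The test was limma 3.58.1 (R 4.3.3) on log2(FPKM + 1), with trend and robust moderation, over the 10260 genes that reach 1 FPKM in 3 or more libraries, two-sided, Benjamini-Hochberg adjusted. Fold changes are Dek_cKO minus Dek_fl on that scale, which understates low genes. Dek had an exact permutation test. The fit was tested on simulated data. Values in every library are given, in each class, for the 2 members of highest mean, the member of smallest p and any member without overlap. Fold changes are given for these alone, and partners are named at an unadjusted p under 0.05. Values of other members are named for context, chosen after they were seen. Members and lists were chosen with earlier results of these data known. Alternatives were another pseudocount, filters, scalings, array weights, plain eBayes, a replicate block, voom on recovered reads and leaving out each library. Leaving out the value of Dek that is not whole, or multiplying it by 10, was added after seeing the data. Tables and figures were made with pandas 2.3.3, numpy 2.4.6, matplotlib 3.10.9 and scipy 1.17.1 under Python 3.11.15.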

Additional observations from a re-analysis of the deposited data

Results flagged for a closer look

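In 6 of the 39 members 1 Dek_fl library stood apart from the other 3 on the log2(FPKM + 1) scale. Among the 37 members tested there were 5 (13.5%), where 10.8% of all genes tested had such a library. The criterion itself flags about 1 in 20 groups of normally spread values. The gap to the nearest library, as a share of the group's range, was 0.884 for Hdac3, lowest in replicate 1 at 16.5 FPKM. It was 0.91 for Hdac6, highest in replicate 1 at 16.0 FPKM, and 1.0 for Hdac10, at 40.5 FPKM in replicate 3 with the other 3 listed at 0. It was 0.864 for Sirt6, highest in replicate 2 at 2.30 FPKM, and 0.895 for Sirt7, listed at 0 in replicate 4. It was 0.858 for Kat5, highest in replicate 3 at 32.8 FPKM. The library that stood apart was replicate 1 in 2 genes, replicate 3 in 2, replicate 2 in 1 and replicate 4 in 1.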

How the results depend on the processing

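No member was called under any of the 16 alternatives, and the smallest adjusted p of a member was 0.6323, by voom. Members at an unadjusted p under 0.05 numbered 1 higher with a pseudocount of 0.1 (Hdac10) and 2 by voom (Brd2 and Hdac10). Leaving out each library gave 0 to 1 higher (Hdac10 without Dek_fl replicate 3, Sirt6 without Dek_cKO replicate 3) and 0 to 1 lower (Sin3b without Dek_cKO replicate 1). Without Dek_fl replicate 3, Hdac10 passed the filter through Dek_cKO libraries alone, so its p and its lack of overlap there support nothing. Members without overlap numbered 1 higher with the filter of 1 FPKM in at least 5 libraries, and 1 lower after median-of-ratios scaling and after TPM rescaling. They numbered 3 to 4 higher and 2 to 5 lower when each library was left out, where 8.23% to 13.0% of all genes had no overlap, since fewer samples overlap more rarely. Members without overlap over all libraries could leave these counts only through the filter, so their staying shows nothing. Partner genes at an unadjusted p under 0.05 numbered 0 higher without a filter and with the stricter filter, 2 higher with array weights, and 2 higher and 1 lower by voom. With each library left out they numbered 0 to 2 higher and 0 to 5 lower. The median log2 fold change of the members was -0.30 to 0.41 when each library was left out, 0.41 without Dek_cKO replicate 2. Dek kept its direction throughout, at -3.31 to -2.51 with each library left out and -2.96 without the value that is not whole, and was -1.73 with that value multiplied by 10. Log2 fold changes that changed sign were those of Ncor1 (0.03 after TPM rescaling) and Sirt3 (0.03 after TPM rescaling), and of Brd3 (0.12 with array weights, 0.24 by voom). With each library left out the ranges were -0.31 to 0.20 for Ncor1, -0.58 to 0.41 for Sirt3, -0.66 to 0.20 for Brd3, -0.28 to 1.98 for Sirt7, -1.49 to 0.09 for Mta2, -0.15 to 1.42 for Mta1, -1.27 to 0.44 for Gps2, -1.04 to 0.01 for Hdac1 and -2.74 to 1.10 for Mbd3. The median of all genes tested was 0.12 after TPM rescaling, 0.11 with a pseudocount of 0.1 and -0.11 with the replicate block, against 0.05 as reported, and -0.11 to 0.14 with each library left out. The cause was not tested.

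The labels give both groups replicates 1 to 3. Deviations of same-numbered libraries from their group means correlated at -0.03, -0.073 and 0.045. Those of differently numbered libraries correlated at -0.083 to 0.072. With so few libraries and so wide a spread, these values cannot show whether same-numbered libraries were paired. The replicate block called 0 genes, as did the test without it, and gave 0.20 for Brd3, 0.10 for Ncor1 and -0.28 for Sirt7. Replicate 4 exists in Dek_fl alone, so the block takes up that library. For each gene tested in both, the fold change with the block is the one found without Dek_fl replicate 4. For fold changes the block is thus no separate alternative, and these sign changes show nothing about pairing. No value of a member was left out as not whole, since all were whole. Values of Hdac5, Hdac6, Hdac8, Sirt6 and Kat5, among others, rest on fewer than 10 reads in at least 1 library and are imprecise there; for Hdac6, Hdac8 and Sirt6 this includes the deepest library, Dek_fl replicate 3.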
